A study of Homo sapiens with 11 samples.

Results

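The miR-148 and miR-152 family is a small group of microRNAs (miRNAs), short RNAs that guide Argonaute proteins to partly complementary mRNAs and thereby lower the stability and translation of these mRNAs. It was followed by 5 mature miRNAs, hsa-miR-148a-3p, hsa-miR-148a-5p, hsa-miR-148b-3p, hsa-miR-148b-5p and hsa-miR-152-3p, among the 2588 mature miRNAs listed. They were selected by name because miR-148a-3p was known to dominate the libraries of HepG2, so that its level and that of its 5p arm are described here without any test. Small RNA-seq was available for 11 libraries of 6 established human tumour cell lines, which were wild-type and untreated according to the labels. A549 stems from a lung adenocarcinoma, ES2 from an ovarian carcinoma, MV3 from a melanoma, BE(2)C from a neuroblastoma and HepG2 from a liver tumour of hepatoblastoma type, with 2 libraries each, whereas PANC1, a pancreatic carcinoma line, had 1 library and therefore has no replicate error. A NEXTflex kit and 50 ng of RNA were used for A549, ES2, MV3 and PANC1, whereas the company Novogene prepared BE(2)C and HepG2, so that an effect of the preparation and one of the line cannot be told apart in any comparison between these sets. Cells were harvested after 48 h, except that the protocol for BE(2)C names 24 h where the sample characteristics name 48 h. The study's methods call the 2 libraries of a line biological replicates, and the labels do not say whether they came from separate cultures.

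Each miRNA hairpin releases a 5p and a 3p strand, of which mostly one is retained by Argonaute. Bases 2 to 8 of the retained strand, the seed, are the main determinant of which mRNAs it binds, and miRNAs with the same seed are regarded as a family with overlapping targets. miR-148a is among the abundant miRNAs of liver, where it is known to act on the mRNAs of the LDL receptor and of the cholesterol transporter ABCA1, and all members of the family have been linked to the mRNA of the DNA methyltransferase DNMT1.

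The sequences are shown first because the comparison of the family rests on them. RefSeq (GRCh38.p14) held the mature sequence of 4 of the 5 members and of miR-152-5p, the remaining arm of the family. hsa-miR-148a-5p is given by name only. Capitals mark the seed.
hsa-miR-148a-3p: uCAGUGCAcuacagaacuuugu
hsa-miR-148b-3p: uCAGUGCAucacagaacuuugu
hsa-miR-152-3p: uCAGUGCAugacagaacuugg
hsa-miR-148b-5p: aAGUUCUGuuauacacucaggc
hsa-miR-152-5p: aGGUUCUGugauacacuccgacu

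The seed CAGUGCA was shared by all 3 of the 3p arms and by no other of the 2281 listed miRNAs with a RefSeq sequence. Outside the seed, positions counted from 1 at the 5′ end, miR-148a-3p and miR-148b-3p differed by C9U and U10C over 22 positions. miR-148a-3p and miR-152-3p differed by C9U, U10G and U20G over the 21 positions of the shorter miR-152-3p, and miR-148b-3p and miR-152-3p by C10G and U20G. The 5p arms of miR-148b and miR-152 did not share a seed, since they differed by A2G within it and by U10G, A19C and G21A outside it. How the authors' counting treated reads with mismatches was not given in the sources used here, so that an exchange of reads between these near-identical arms is possible. In HepG2, 8944472 and 8806925 reads of miR-148a-3p stood beside 18970 and 21242 of miR-148b-3p and 710 and 783 of miR-152-3p. A small misassigned share of miR-148a-3p would therefore weigh on all values of the other 3p arms in HepG2. This was not tested.

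The 3 genes lie on different chromosomes. On GRCh38, MIR148A (ENSG00000199085.3) is at chr7:25949919-25949986 on the minus strand, within an intron of a long non-coding RNA annotated by GENCODE on that strand. MIR148B (ENSG00000199122.3) is at chr12:54337216-54337314 on the plus strand in an intron of COPZ1, and MIR152 (ENSG00000207947.3) is at chr17:48037161-48037247 on the minus strand in an intron of COPZ2. COPZ1 and COPZ2 are transcribed from the same strand as the miRNA within them and encode paralogous subunits of the COPI vesicle coat.

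Between 1173902 and 12137452 reads per library were assigned to the listed miRNAs, and a count of 0 allowed up to 3 reads, which ranged from 0.247 to 2.56 CPM (reads per 1000000 assigned reads) with depth. Levels are CPM of all reads assigned to listed miRNAs unless another scaling is named. The markers checked the labels only in part. Summed over 4 liver miRNAs, the level was 15837 and 16458 CPM in HepG2, the highest of the 6 lines, and 4762 and 4486 CPM in A549. The sum in HepG2 was mostly miR-192-5p, and the other liver miRNAs did not peak there by CPM. miR-122-5p, the miRNA that defines hepatocytes, was at 64.0 and 50.0 CPM in HepG2 and at 823 CPM in BE(2)C replicate 1. miR-194-5p was at 219 and 240 CPM in HepG2 and at 1883 and 1899 CPM in A549. miR-885-5p was at 1.85 and 2.39 CPM in HepG2 and at 6.38 and 6.12 CPM in BE(2)C. The 4 neuronal miRNAs summed to 84711 and 105974 CPM in BE(2)C and to at most 2094 CPM elsewhere. This sum was mostly miR-218-5p, at 68764 and 88238 CPM, and miR-9-5p, at 15875 and 17555 CPM. miR-124-3p was at only 17.7 and 28.1 CPM in BE(2)C. miR-137 was at 54.9 and 153 CPM there and at 58.8 and 85.8 CPM in MV3. miR-211-5p, a defining miRNA of pigment cells, was at 0 reads in MV3 as in all other libraries. miR-204-5p, the other pigment-cell miRNA listed, was at 1.70 and 1.29 CPM in MV3 and at 70.2 and 41.0 CPM in BE(2)C. The 6 epithelial miRNAs summed to between 977 and 1497 CPM in A549 and HepG2, to 133 CPM in PANC1 and to at most 54.2 CPM in ES2, MV3 and BE(2)C. The 4 blood-cell miRNAs reached 480 and 427 CPM in ES2, where miR-142-3p and miR-142-5p made up nearly all of the sum, and 303 and 47.2 CPM in BE(2)C.

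miR-148a-3p was the retained strand that set HepG2 apart from the other lines. It took 752841 CPM in replicate 1 and 725599 CPM in replicate 2 of HepG2, which is 75.3% and 72.6% of all miRNA reads and 739220 ± 19263 CPM as the mean (SD, n = 2). In BE(2)C it stood at 4230 and 1311 CPM. In A549 it stood at 25.5 and 19.9 CPM, based on 68 and 41 reads. ES2 followed with 6.61 and 14.8 CPM and MV3 with 7.67 and 16.8 CPM, while PANC1 had 24.1 CPM. The order of the line means was HepG2, BE(2)C, PANC1, A549, MV3 and ES2. The libraries of HepG2 did not overlap those of BE(2)C, and those of BE(2)C did not overlap those of any NEXTflex line. The share of all miRNAs with such a separation was not counted. PANC1 lay within the range of A549, and MV3 and ES2 overlapped. The mean of HepG2 was 267-fold that of BE(2)C and between 30660-fold and 68993-fold that of a NEXTflex line, and with the TMM scaling explained below these folds were 2110 and between 183118 and 598264. These folds describe how the member was chosen, and the part of preparation in them cannot be told apart from that of the cell line.

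**Figure D1:**
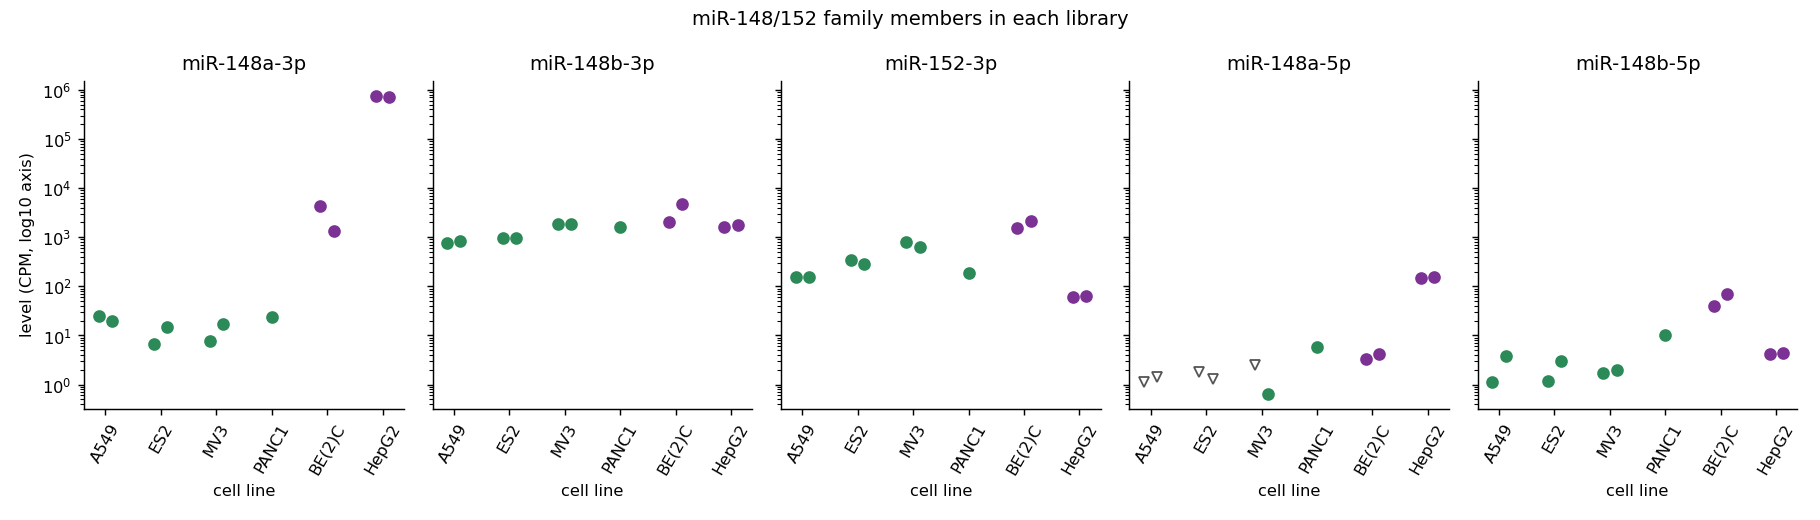
Level of each member in each library (CPM, log10 axis) by cell line, with NEXTflex libraries in green, Novogene libraries in purple and open triangles at the 3-read limit where 0 reads were counted. miR-148a-3p spans from 6.61 CPM in ES2 to 752841 CPM in HepG2, whereas miR-148b-3p stays between 755 and 4707 CPM in all libraries.

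miR-148a-5p, the strand of the same hairpin that is mostly discarded, was far less abundant than its partner. HepG2 had 145.2 and 152.2 CPM, based on 1725 and 1847 reads. PANC1 had 5.85 CPM from 57 reads, and BE(2)C had 3.32 and 4.13 CPM from 25 and 27 reads. No read was counted in 5 of the 7 NEXTflex libraries, namely both of A549, both of ES2 and MV3 replicate 1, and a single read in MV3 replicate 2. HepG2 was thus the line with the highest level of both arms, but the 5p arm did not rank the other lines as the 3p arm did, because PANC1 lay above BE(2)C for the 5p arm and 115-fold below it for the 3p arm. The 5p arm passed the limit for low values, a mean of 10 CPM in some line, through HepG2 alone.

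miR-148b-3p was at 755 CPM or more in all libraries. It was measured at 755 and 823 CPM in A549, at 973 and 956 CPM in ES2, at 1900 and 1842 CPM in MV3 and at 1626 CPM in PANC1. In the Novogene libraries it was at 2064 and 4707 CPM in BE(2)C and at 1597 and 1750 CPM in HepG2. The highest line mean, 3385 ± 1869 CPM in BE(2)C (SD, n = 2), was 4.29-fold the lowest, 789 ± 47.5 CPM in A549 (SD, n = 2). By mean the order was BE(2)C, MV3, HepG2, PANC1, ES2 and A549. The libraries of these neighbours did not overlap except that PANC1 lay between the 2 libraries of HepG2. How many of all miRNAs separate the lines in this way was not counted. Despite its 15th rank among all miRNAs in both HepG2 libraries, miR-148b-3p was outnumbered there by miR-148a-3p 472-fold and 415-fold.

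By CPM, miR-152-3p had a wider range of line means than miR-148b-3p and its lowest level in HepG2. HepG2 held 59.8 and 64.5 CPM. A549 held 153 and 159 CPM, PANC1 189 CPM, and ES2 345 and 291 CPM. MV3 followed with 815 and 638 CPM and BE(2)C with 1545 and 2166 CPM. No library of one line overlapped those of another, but the share of all miRNAs with such a separation was not counted. The mean of BE(2)C, 1855 ± 439 CPM (SD, n = 2), was 29.9-fold that of HepG2, 62.1 ± 3.36 CPM (SD, n = 2). With TMM, a scaling explained in the next paragraph, the highest line mean was 11.2-fold the lowest for miR-152-3p and 12.1-fold for miR-148b-3p, so that the order of the ranges turned.

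The levels of both relatives in HepG2 depended on the scaling, because miR-148a-3p alone took most of the reads there. With library totals that left out miR-148a-3p, the mean of miR-148b-3p in HepG2 was 6419 CPM instead of 1673 CPM, and with TMM factors (trimmed mean of M-values) over all libraries it was 8835 CPM. HepG2 then had the highest level of miR-148b-3p of the 6 lines, 1.89-fold that of BE(2)C without miR-148a-3p in the totals and 4.07-fold with TMM, whereas by CPM it was 0.494 times that of BE(2)C. miR-152-3p in HepG2 changed from the lowest level by CPM to 238 CPM without miR-148a-3p in the totals, above PANC1 and A549, and to 328 CPM with TMM, where its libraries overlapped those of MV3. BE(2)C kept the highest mean of miR-152-3p under all 3 scalings. Whether HepG2 holds more or less of either relative than the other lines is therefore not settled by these values.

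**Figure D2:**
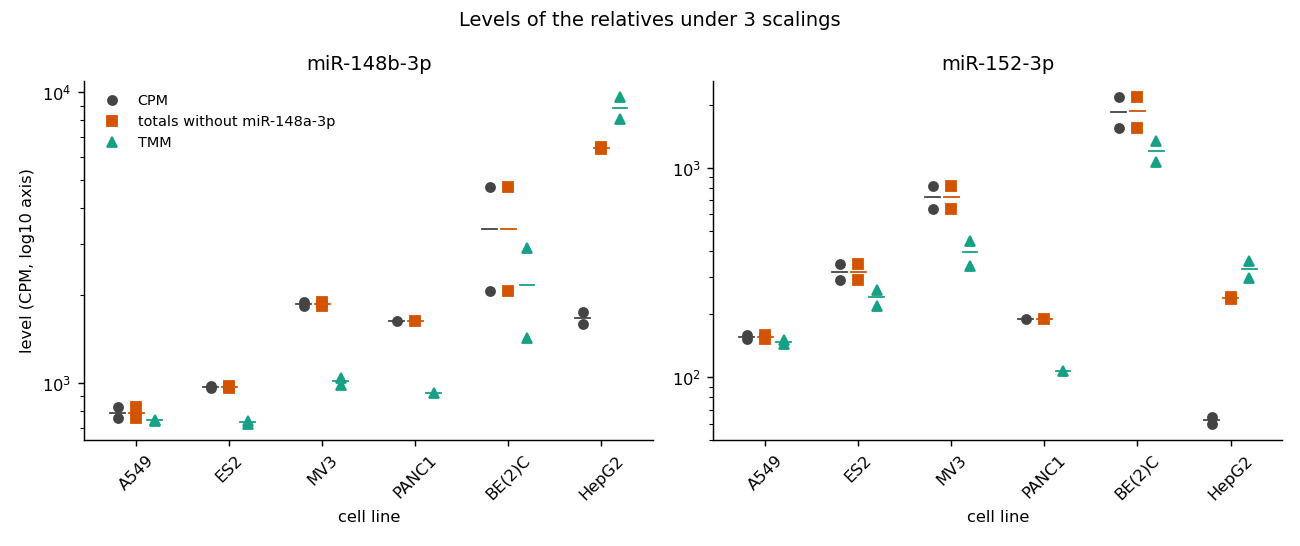
Levels of miR-148b-3p and miR-152-3p in each library under 3 scalings (CPM, log10 axis), with a short bar for the line mean. The HepG2 mean of miR-148b-3p moves from 1673 with CPM to 6419 with totals that leave out miR-148a-3p and 8835 with TMM, while the other lines change by less.

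Shares among the same-seed arms do not depend on the scaling, and they separated the lines into 3 patterns. In the 7 NEXTflex libraries, miR-148b-3p made up between 69.8% and 88.4% of the same-seed reads and miR-148a-3p between 0.282% and 2.73%. In HepG2, miR-148a-3p made up 99.8% of these reads in both libraries (95% Wilson intervals 99.777% to 99.784% in replicate 1 and 99.747% to 99.754% in replicate 2). miR-148b-3p contributed 0.212% and 0.241% there and miR-152-3p 0.00792% and 0.00887%. BE(2)C lay between these patterns, and its 2 libraries did not match each other. In replicate 1 miR-148a-3p was the most abundant of the 3 arms with 54.0% (95% Wilson interval 53.6% to 54.4%), whereas in replicate 2 it was the least abundant with 16.02% (15.7% to 16.3%). miR-148b-3p went the other way, with 26.3% in replicate 1 and 57.5% in replicate 2. These intervals cover counting error only.

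Within the NEXTflex lines the share of miR-152-3p was lower in PANC1 and A549 than in ES2 and MV3. It was 10.3% in PANC1 (95% Wilson interval 9.86% to 10.7%) and 16.4% and 15.9% in A549. ES2 had 26.0% and 23.0%, and MV3 had 29.9% and 25.6%, so that these lines overlapped.

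**Figure D3:**
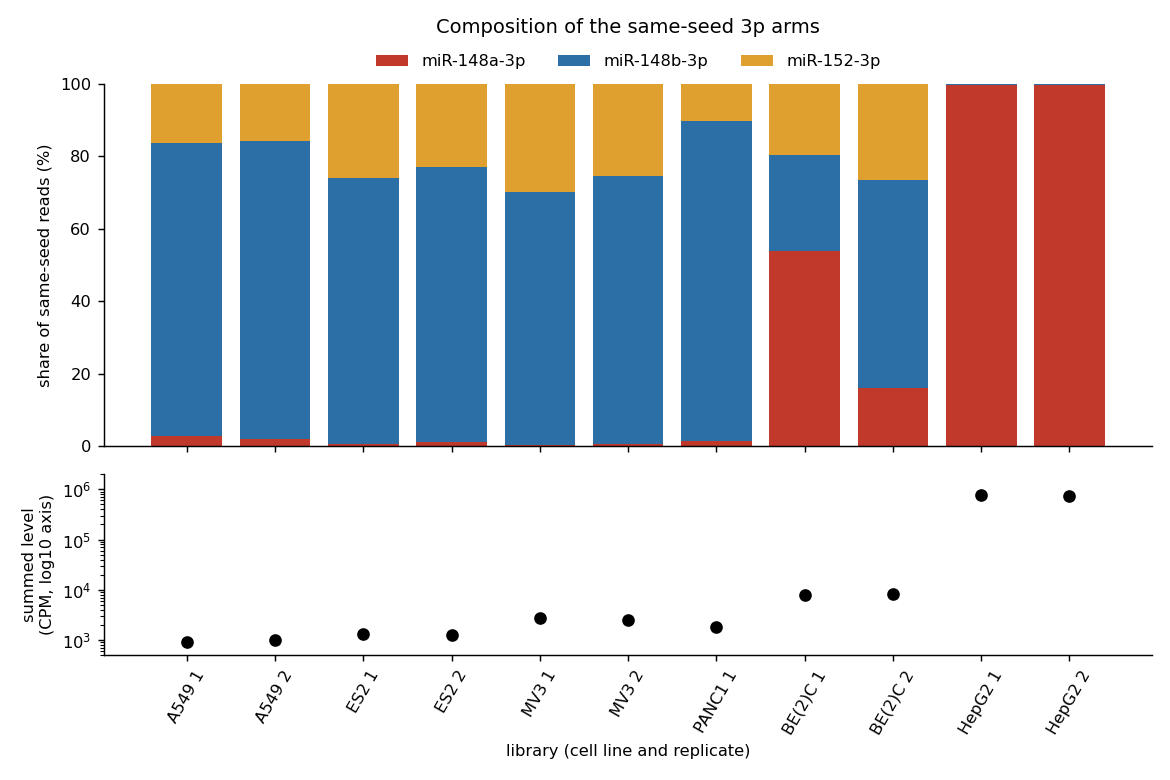
Share of each 3p arm in the same-seed reads of a library (upper panel, %) and their summed level (lower panel, CPM, log10 axis). miR-148b-3p is the largest share in all NEXTflex libraries, miR-148a-3p takes 99.8% in HepG2, and the BE(2)C libraries differ in composition at sums of 7838 and 8183 CPM.

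The summed level of the 3 same-seed arms was closer between the BE(2)C libraries than any of its parts. It was 7838 CPM in replicate 1 and 8183 CPM in replicate 2, a 1.04-fold difference, while miR-148a-3p differed 3.23-fold, miR-148b-3p 2.28-fold in the opposite direction and miR-152-3p 1.40-fold. Among the 401 miRNAs with a mean of at least 10 CPM in BE(2)C, the median difference between the 2 libraries was 0.63 on the log2(CPM + 1) scale. The difference of miR-148a-3p, 1.69 on that scale, was larger than that of 94.8% of them, and that of miR-148b-3p, -1.19, was larger in size than that of 83.5%. Between these libraries miR-122-5p, miR-192-5p and miR-451a moved in the direction of miR-148a-3p, whereas miR-194-5p moved the other way and miR-885-5p hardly changed. Of the 4 liver miRNAs, miR-122-5p was at 823 and 5.96 CPM, miR-192-5p at 1288 and 578 CPM, miR-194-5p at 160 and 258 CPM and miR-885-5p at 6.38 and 6.12 CPM in replicates 1 and 2, with sums of 2277 and 848 CPM. miR-451a, an erythroid miRNA, was at 299 and 46.0 CPM. Their part in the result was not tested.

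The same sum was 967 ± 47.7 CPM in A549 (SD, n = 2), 1293 ± 45.4 CPM in ES2 (SD, n = 2), 2610 ± 160 CPM in MV3 (SD, n = 2) and 1840 CPM in PANC1. In HepG2 it was 740955 ± 19151 CPM (SD, n = 2), of which miR-148b-3p and miR-152-3p together supplied 1736 ± 112 CPM, an amount within the range of the NEXTflex lines by CPM.

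The ratio of miR-148b-3p to miR-152-3p, which no scaling changes, was highest in HepG2. There were 26.7 and 27.1 reads of miR-148b-3p per read of miR-152-3p in the HepG2 libraries. How far misassigned reads of miR-148a-3p entered these counts was not tested. PANC1 had 8.59, A549 had 4.94 and 5.18, ES2 had 2.82 and 3.29, and MV3 had 2.33 and 2.89. BE(2)C was lowest with 1.34 and 2.17. miR-148b-3p thus exceeded miR-152-3p in 11 of 11 libraries, and the lines overlapped only between ES2 and MV3. How often ratios of other miRNAs separate the lines in this way was not counted. The replicates of HepG2 differed by less than their counting error, with exact 95% intervals of 24.8 to 28.8 and 25.3 to 29.2, whereas those of BE(2)C did not, with 1.30 to 1.37 and 2.13 to 2.22.

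The balance between the 2 strands of a hairpin varied most for miR-148a. HepG2 had 5185 and 4768 reads of miR-148a-3p per read of miR-148a-5p. BE(2)C had 1273 in replicate 1 and 317 in replicate 2, since the 3p arm differed between these libraries and the 5p arm hardly did. In PANC1 the ratio was 4.12 (exact 95% interval 3.08 to 5.61), 1258-fold below the higher value of HepG2. In the 5 libraries without a read of the 5p arm, this arm was set to the limit of 3 reads per library. The ratio was then 22.7 and 13.7 in A549, 3.67 and 11.3 in ES2 and 3 in MV3 replicate 1. The exact 95% lower limits were smaller, with 17.9 and 10.6 in A549, 2.51 and 8.73 in ES2 and 1.97 in MV3 replicate 1. MV3 replicate 2, with a single 5p read, had a ratio of 26.0 with an exact interval of 4.27 to 1066. The interval of PANC1 lay below the values of both A549 libraries and of ES2 replicate 2, but not below those of ES2 replicate 1 and MV3 replicate 1, and it overlapped the interval of MV3 replicate 2.

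For miR-148b, the strand ratio was lowest in BE(2)C, with 51.4 and 66.1 reads of the 3p arm per read of the 5p arm. PANC1 had 157, A549 had 672 and 212, ES2 had 810 and 313, and MV3 had 1116 and 951, and those of A549, ES2 and MV3 rested on 2 to 8 reads of the 5p arm. HepG2 had 387 and 401. The upper exact limit in BE(2)C, 72.5, was below the lowest limit in any other line, 107 in A549 replicate 2. The ratio of HepG2 lay within the range of the NEXTflex lines and above that of BE(2)C, the line with the same preparation. For miR-152, BE(2)C had 63.5 and 78.7 reads of the 3p arm per read of miR-152-5p and HepG2 had 142 and 78.3, with 5 and 10 reads of the 5p arm. ES2 had 144 and 133, MV3 had 239 and 494, A549 replicate 2 had 164, and no read of miR-152-5p was counted in A549 replicate 1 and PANC1, which allows a ratio of at least 136 and at least 615.

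**Figure D4:**
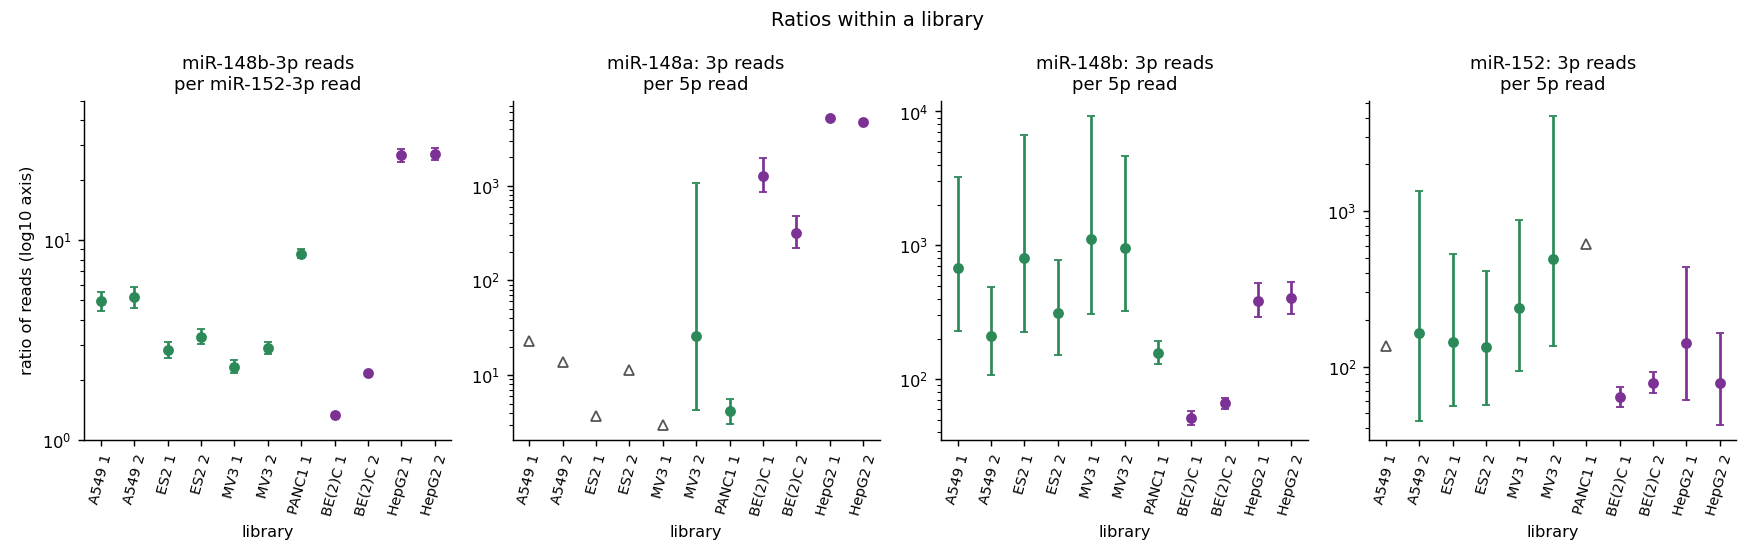
Reads of miR-148b-3p per read of miR-152-3p and reads of the 3p arm per read of the 5p arm for each hairpin, by library (log10 axis). Bars are exact 95% intervals for counting error. Open triangles are ratios with the 5p arm set to 3 reads where no 5p read was counted. HepG2 is highest for the ratio of miR-148b-3p to miR-152-3p at 26.7 and 27.1 and for miR-148a at 5185 and 4768, and BE(2)C is lowest for miR-148b at 51.4 and 66.1.

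Differences between lines were tested only for miR-148b-3p, miR-152-3p and miR-148b-5p and only between lines other than HepG2. All miRNAs that reached a mean of 10 CPM in some line were fitted on log2(CPM + 1) with limma, and all p-values below are adjusted by Benjamini-Hochberg over all miRNAs tested. Of the 5 members all passed this limit in the fit of 11 libraries, miR-148b-5p through BE(2)C and PANC1 only. Comparisons that share a line share its libraries and are not independent of each other.

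Over the 4 NEXTflex lines, where preparation does not vary, miR-148b-3p (adjusted p = 0.000187, limma moderated F test) and miR-152-3p (adjusted p = 0.000698) differed between lines. This comparison called 85.4% of all 453 miRNAs tested, so that being called does not distinguish these 2 members. miR-148b-5p entered the test only through PANC1, the line of this set where it was highest at 10.4 CPM, and its value (adjusted p = 0.0992, and 0.0362 with a pseudocount of 5) is therefore not read as a result.

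miR-152-3p was higher in MV3 than in ES2 and higher in ES2 than in A549. The log2 difference of A549 to ES2 was -1.02 ± 0.22 (SE, limma adjusted p = 0.00519), and 50.5% of all 546 miRNAs tested were called in this comparison. It was -2.20 ± 0.22 between A549 and MV3 (adjusted p = 0.000109), with 57.3% of all miRNAs called, and -1.19 ± 0.22 between ES2 and MV3 (adjusted p = 0.00463), with 32.8% called. In size these differences were larger than 44.3%, 69.6% and 65.4% of those of all miRNAs tested. With TMM factors the differences shrank to -0.70, -1.40 and -0.70 and all 3 passed (adjusted p = 0.0291, 0.0011 and 0.0478). With edgeR's quasi-likelihood test on the recovered reads, those of A549 to ES2 (adjusted p = 0.0586) and of ES2 to MV3 (adjusted p = 0.138) did not pass, nor did that of A549 to ES2 with DESeq2 (adjusted p = 0.0997).

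For miR-148b-3p the differences among these lines were smaller. It was lower in A549 than in MV3 by CPM, with a log2 difference of -1.25 ± 0.33 (SE, limma adjusted p = 0.0141), but this call was lost with TMM factors (-0.45, adjusted p = 0.27). Without any 1 of the 4 libraries of A549 and MV3 the difference was between -1.31 and -1.18 and did not pass (adjusted p between 0.0549 and 0.0727), whereas in a fit of the NEXTflex libraries alone it was -1.25 ± 0.06 and passed (adjusted p = 0.000109). The differences of A549 to ES2, -0.29 ± 0.33 (adjusted p = 0.497, 95% interval -1.07 to 0.49), and of ES2 to MV3, -0.96 ± 0.33 (adjusted p = 0.0632), did not pass. In that fit both passed (adjusted p = 0.0132 and 0.000444), since the SE there was 0.06 in place of 0.33, and leaving out either BE(2)C library had the same effect on both calls. The direction for A549 and ES2 turned with TMM (0.025).

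miR-148b-5p was at 1.12 and 3.88 CPM in A549, at 1.20 and 3.05 CPM in ES2 and at 1.70 and 1.94 CPM in MV3, values near the limit of 3 reads, and its differences among these lines did not pass (limma adjusted p between 0.80 and 0.991). The 95% intervals of these log2 differences reached from -1.11 to 1.38.

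BE(2)C was compared with A549, ES2 and MV3, which also changes the preparation, and was not tested against PANC1. Of all 546 miRNAs tested, 76.7% to 78.0% were called in these comparisons, so that being called does not distinguish a member. miR-152-3p was higher in BE(2)C than in A549 by 3.55 ± 0.22 on the log2 scale (SE, limma adjusted p = 3.15e-06), where 76.7% of all miRNAs were called. It was higher than in ES2 by 2.53 ± 0.22 (adjusted p = 1.44e-05), with 77.5% called, and higher than in MV3 by 1.34 ± 0.22 (adjusted p = 0.000639), with 78.0% called. miR-148b-3p was higher in BE(2)C than in A549 by 1.98 ± 0.33 (adjusted p = 0.000847) and than in ES2 by 1.69 ± 0.33 (adjusted p = 0.00194). Without BE(2)C replicate 1 these differences were 2.58 and 2.29 and without replicate 2 they were 1.39 and 1.10, all passing, and with quantile normalization that to A549 was 0.65 and did not pass (adjusted p = 0.103). The difference of miR-148b-3p to MV3, 0.74 ± 0.33, did not pass (adjusted p = 0.0764, 95% interval -0.04 to 1.51). It likewise rested on the discordant BE(2)C libraries, with 1.33 (adjusted p = 5.32e-05) without replicate 1 and 0.14 (adjusted p = 0.186) without replicate 2, and passed with TMM at 1.01 (adjusted p = 0.0152).

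miR-148b-5p stood at 40.2 and 71.3 CPM in BE(2)C, at 10.4 CPM in PANC1 and at 4.12 and 4.37 CPM in HepG2, where its mean was 22.5 CPM and above that of PANC1 with TMM. BE(2)C exceeded A549 by 4.08 ± 0.51, ES2 by 4.19 ± 0.51 and MV3 by 4.27 ± 0.51 (SE) on the log2(CPM + 1) scale. This scale understates the change of so low a level. The limma adjusted p-values were 0.000158, 0.000121 and 0.00012. They are not read as results, because miR-148b-5p passed the limit for low values only through BE(2)C and PANC1. The size of these differences depended on the settings. They were 2.19, 2.41 and 2.90 with quantile normalization and 2.99, 3.05 and 3.11 with a pseudocount of 5. The difference to A549 was 3.48 without A549 replicate 1 and 4.68 without A549 replicate 2. By CPM the differences of miR-148b-5p were larger in size than 70.7%, 64.8% and 69.2% of those of all miRNAs tested. For the same reason these shares are not read as results either. The differences of miR-148b-3p were larger in size than 38.8%, 33.3% and 17.2%, and those of miR-152-3p than 63.2%, 45.6% and 28.02%. To ES2 and MV3 the difference of miR-152-3p was thus smaller than the median size of all differences. The median over all miRNAs tested was itself shifted by 1.38 to A549, 1.08 to ES2 and 0.48 to MV3, and the difference of miR-152-3p exceeded this shift by more than that of miR-148b-3p in each comparison.

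**Figure D5:**
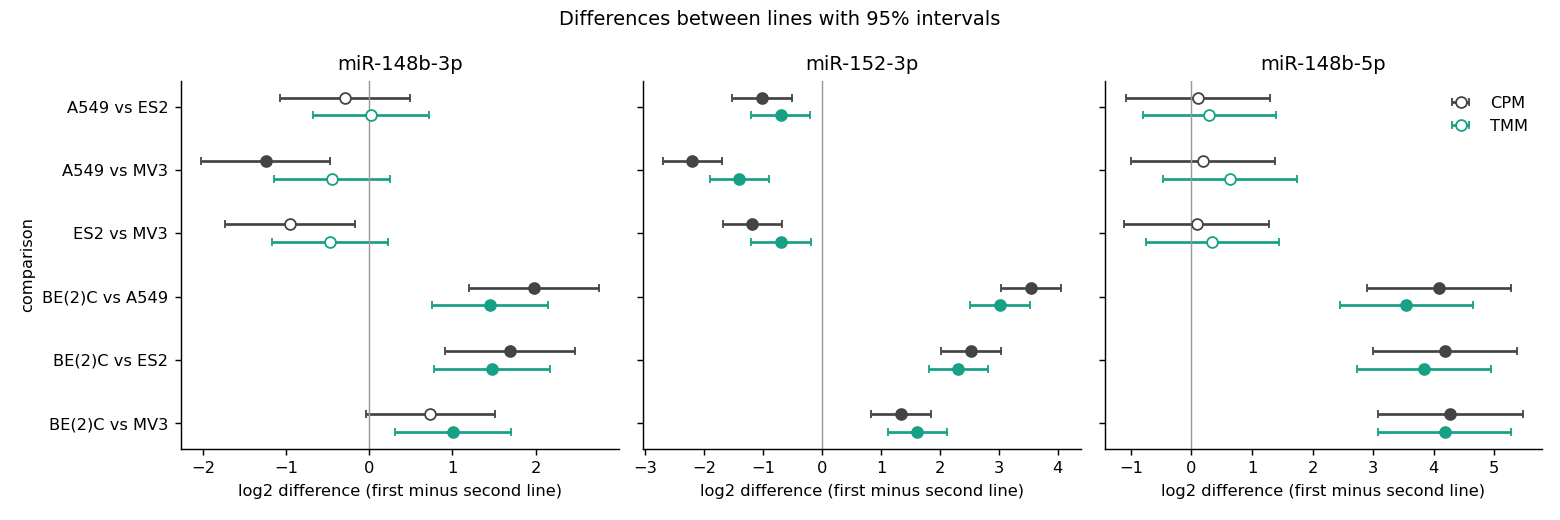
Log2 differences between lines (first minus second) for miR-148b-3p, miR-152-3p and miR-148b-5p with 95% intervals, by CPM in grey and TMM in green, with filled points where the adjusted p is under 0.05. miR-152-3p is past the threshold in all 6 comparisons under both scalings, whereas miR-148b-3p between A549 and MV3 is so by CPM at -1.25 but not by TMM at -0.45.

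The miRNAs with the most similar pattern were different for each of the 3p arms. Similarity was taken as Pearson's r of log2(CPM + 1) over the 11 libraries, among 541 other miRNAs tested, and these points share library, depth and line, so that r is given as a description. For miR-148a-3p these were miR-578 (r = 0.91), which was at 36.5 CPM in HepG2 and at 0 reads in all NEXTflex libraries, miR-146b-5p (r = 0.90), an immune-regulatory miRNA at 2500 CPM in HepG2 and at most 219 CPM as a mean elsewhere, and miR-1257 (r = 0.89) at 17.5 CPM in HepG2. For miR-148b-3p they were miR-32-5p (r = 0.94), miR-1307-3p (r = 0.85) and miR-501-5p (r = 0.84), all highest in BE(2)C. For miR-152-3p they were miR-218-5p (r = 0.98), a neuronal miRNA at a mean of 78501 CPM in BE(2)C and 7.28 CPM in HepG2, miR-129-5p (r = 0.96) and miR-125b-2-3p (r = 0.95). Most of these rankings did not hold with TMM factors. miR-1257 was then first for miR-148a-3p, with miR-146b-5p at position 10 and miR-578 at 14. miR-32-5p stayed first for miR-148b-3p, with miR-1307-3p at 48 and miR-501-5p at 91. For miR-152-3p, miR-129-5p was at 6, miR-218-5p at 25 and miR-125b-2-3p at 119. Among the members themselves r was 0.38 between miR-148a-3p and miR-148b-3p, -0.36 between miR-148a-3p and miR-152-3p and 0.58 between miR-148b-3p and miR-152-3p, and with TMM 0.96, 0.31 and 0.38.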

How the data were processed

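Small RNA-seq of 11 libraries of 6 untreated cell lines was analysed. The authors deposited 1 table per line with 2813 rows for 2588 mature miRNAs. The deposited PANC1 values were CPM. For the other 5 lines the deposited values were a scaled signal, CPM divided by a factor that was set separately for each table. Every nonzero value (100%, within 0.01 reads) was a whole multiple of 1 read, so reads were recovered and each library was rescaled to 1000000. The design had assumed CPM throughout. The submitters' processing notes name cutadapt 1.14, Bowtie2 2.3.2, SAMtools 1.5, featureCounts 1.5.3, edgeR 3.30.3 and hg38, without their settings.

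Rows of a mature name were summed. All miRNAs reaching a mean of 10 CPM in some line entered limma 3.58.1 (R 4.3.3) as log2(CPM + 1), with line as the only factor, a trend, two-sided contrasts and an adjusted p threshold of 0.05. The F test used the 7 NEXTflex libraries, and the pairs used all 11. The fits were run on simulated data with known changes, in which all lines took their levels from ES2. These data had no miRNA with most of the reads, no preparation effect and no discordant replicates, so they do not check those features. Alternatives used edgeR 4.0.16 and DESeq2 1.42.0. Shares have 95% Wilson intervals and ratios exact binomial ones (scipy 1.17.1), which cover counting error only because reads are PCR products without molecular identifiers. Depth was 1173902 to 12137452 reads. Groups came from the sample titles. The named miRNAs were the 5 members, miR-152-5p, any miRNA with the seed of the 3p arms and, for each 3p arm, the 3 tested miRNAs with the highest r. Members, marker lists and this rule were chosen with earlier results of these data known. Gene positions were read from RefSeq and GENCODE v44.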

Additional observations from a re-analysis of the deposited data

How the results depend on the processing

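The number of miRNAs called kept within 1.5 times its value under every alternative run, including the recovered reads with edgeR (125 to 414 calls per pair and 388 for the F test), except that without the filter on low values 645, 653 and 656 miRNAs were called for BE(2)C against A549, ES2 and MV3 in place of 419, 423 and 426, with 1608 tested. The share called depended on this filter. Without it the F test called 36.2% of 1181 miRNAs in place of 85.4%. A549 against ES2, A549 against MV3 and ES2 against MV3 then had 16.7%, 19.3% and 11.6% called in place of 50.5%, 57.3% and 32.8%. The BE(2)C pairs had 40.1% to 40.8% in place of 76.7% to 78.0%. The share of calls higher in the first line moved with the scaling, from 34.8% to 56.1% with TMM for A549 against MV3, from 27.4% to 47.3% with TMM for ES2 against MV3, from 46.7% to 55.0% with TMM and 67.0% with DESeq2 for A549 against ES2, and with quantile normalization from 70.9% to 52.3%, 66.0% to 48.0% and 58.5% to 47.2% for BE(2)C against A549, ES2 and MV3. The median log2 difference of all miRNAs moved with TMM from -0.47 to 0 for A549 against MV3, from -0.36 to 0 for ES2 against MV3, from -0.17 to 0 for A549 against ES2, and from 1.38, 1.08 and 0.48 to 0.88, 0.84 and 0.71 for the BE(2)C pairs. Quantile normalization gave 0.18, 0 and -0.29 for the BE(2)C pairs, and DESeq2 gave 0.30 and 0.26 for A549 against ES2 and MV3.

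In HepG2, the level of miR-148b-3p moved from 1673 to 8835 (TMM) and 6419 (totals without miR-148a-3p), and that of miR-152-3p from 62.1 to 328 and 238, which follows from the share of miR-148a-3p in the totals. The difference of miR-148b-3p between A549 and ES2 reversed with TMM (0.025), quantile normalization (0.35) and DESeq2 (0.36), and none of these passed. That of A549 to MV3 was also lost with quantile normalization (adjusted p = 0.351), edgeR (0.303), DESeq2 (0.67) and without the filter (0.0501), and that of BE(2)C to A549 with quantile normalization (0.103). BE(2)C to MV3 was also gained with edgeR (0.0208) and DESeq2 (2.45e-05). The cause of these changes was not tested. When single libraries were left out, the differences of miR-148b-5p spanned -0.49 to 0.71 (A549 to ES2), -0.41 to 0.79 (A549 to MV3) and -0.36 to 0.52 (ES2 to MV3), all not passing and changing sign without A549 replicate 2, ES2 replicate 1 or ES2 replicate 2. Calls for miR-152-3p held without any single library.

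Same-numbered replicates were not shown to be paired, with correlations of their deviations between -0.05 and 0.11. With the replicate number as a block, 363 miRNAs were called by the F test in place of 387. miR-148b-5p then had an adjusted p of 0.0329, which is not read as a result because it entered that test only through PANC1. With the block no member's call changed in the 6 pairs. Depth limits the 5p arms, which rested on 0 to 8 reads in A549, ES2 and MV3.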
